A study of Mus musculus with 6 samples.

Results

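ErbB receptor genes, the genes of their EGF-family ligands and one feedback inhibitor were followed through 6 RNA-seq libraries of Cd11b-enriched non-myocyte cells from mouse heart. The 10 genes were taken by name from 55487 gene identifiers, by a rule that used no measured value. Earlier results of these data were known when they were chosen. They were the receptor genes Egfr, Erbb2 and Erbb3, the ligand genes Hbegf, Areg, Ereg, Btc, Nrg1 and Tgfa, and the inhibitor gene Errfi1. All 10 were found, and all 10 passed the filter on low counts, as did 15707 genes in all.

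The KO group held 3 pools labelled EGFR -/- (myeloid-specific), with Egfr mKO given as the source. The WT group held 3 pools of Egfr f/f hearts, which carry floxed Egfr with no deletion. All mice were of the C57BL/6 strain. KO replicate 3 came from 6 hearts, and each of the other 5 pools came from 5, so the pool and not the animal was the replicate. The tests therefore set the group difference against variation between pools and not between animals. What drives the myeloid deletion, the age and the sex of the mice, and the purity after bead enrichment are missing from the labels used here.

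ErbB receptors are cell-surface tyrosine kinases that work as dimers. Ligands of the EGF family are made as membrane-anchored precursors and are cut free by ADAM proteases, and their binding brings receptor pairs together and switches on the MAPK and PI3K pathways. In the heart the pathway is best known from neuregulin made by endothelial cells, which acts on cardiomyocytes, while macrophages and injured tissue are known sources of heparin-binding EGF, amphiregulin and epiregulin.

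The libraries held 17780707 to 27485129 reads in genes. Itgam, which encodes Cd11b, was at 149 ± 28.1 CPM (counts scaled to a fixed library total with TMM factors) in KO pools and 104 ± 31.6 CPM in WT pools (SD, n = 3 each). Marker genes of other heart cells were present in every pool. The summed level of 13 endothelial markers was 1454 to 1883 CPM in KO and 2550 to 4263 CPM in WT, and that of 15 fibroblast markers was 4324 to 5974 CPM in KO and 5074 to 16418 CPM in WT. The summed level of 12 resident macrophage markers was 14157 to 14971 CPM in KO and 7804 to 14282 CPM in WT. In these bulk libraries fewer cells of a type and less RNA per cell cannot be told apart. KO replicate 1 and WT replicate 1 carried Y-linked transcripts, with 234 and 240 CPM summed over 4 genes, and the other 4 pools held under 1 CPM. Across all genes only Egfr and Lyz2, the lysozyme gene of myeloid cells, passed edgeR at an adjusted p under 0.05. Lyz2 is named after its values were seen, because the count was so small.

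Egfr fell in the KO pools and was the only one of the 10 genes that passed the test. Of the 10, 1 was lower and 0 were higher, beside 0.0127% of all genes tested that were lower and 0% that were higher. At an unadjusted edgeR p under 0.05, 3 of the 10 were lower (Egfr, Erbb2 and Ereg), beside 10.6% of all genes, and 1 was higher (Nrg1), beside 4.77%. The median log2 fold change of the 10 genes, KO over WT, was -0.33, and that of all genes tested was 0.0072. With Egfr left out, 0 of 9 passed in either direction, 2 were lower and 1 was higher at an unadjusted p under 0.05, and the median was -0.29. DESeq2 called 2 of the 10 lower, Egfr and Erbb2, beside 3.97% of all genes, and none higher, beside 1.03%, and limma-voom called none. Without WT replicate 1 edgeR called Egfr, Erbb2 and Ereg lower, beside 5.97% of all genes, and called none higher, beside 2.33%.

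**Figure D1:**
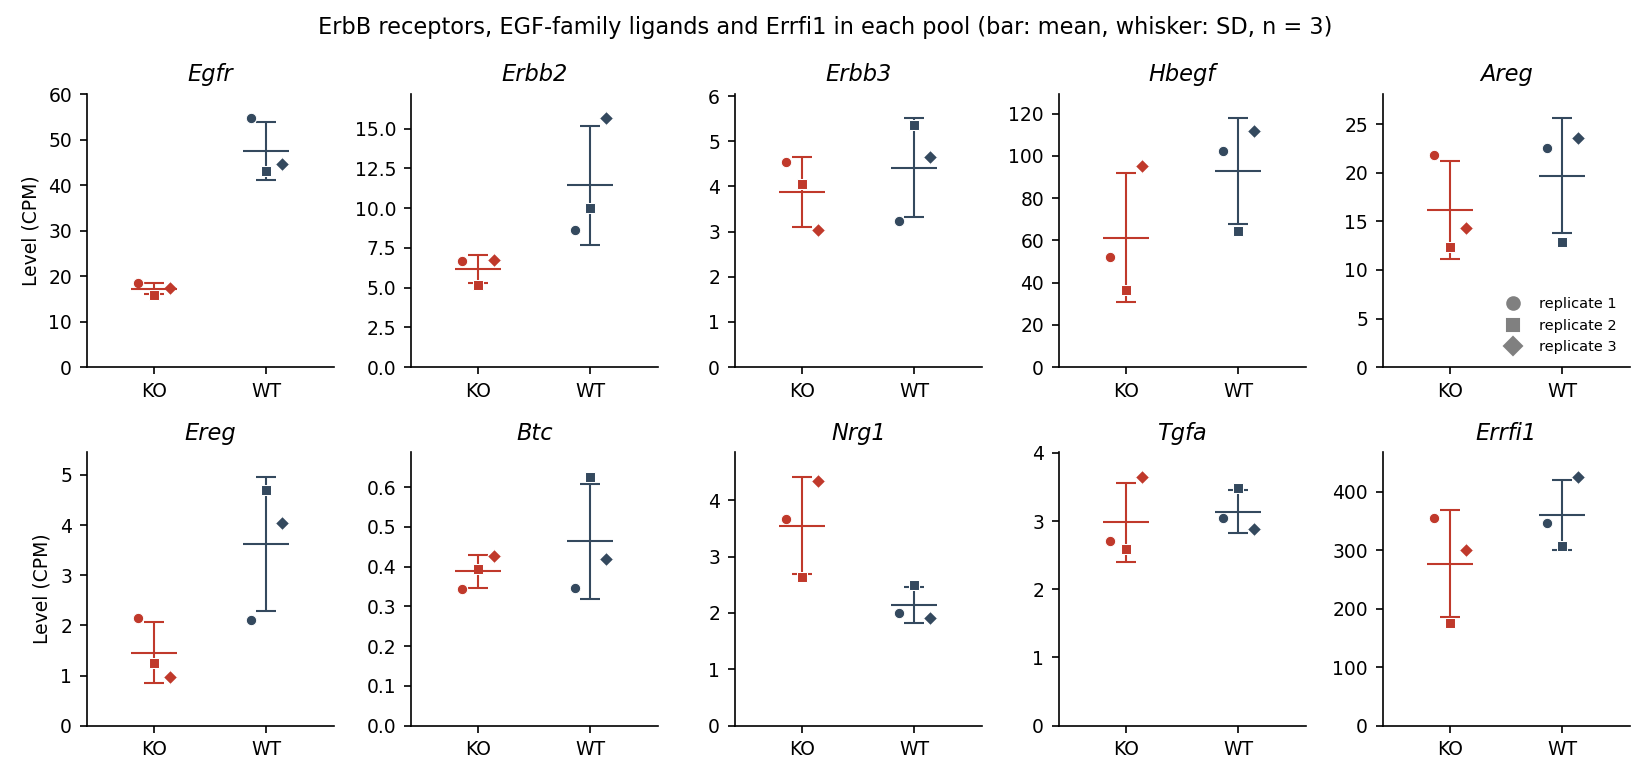
Level in CPM (vertical axis, from 0) of each of the 10 genes in the 3 KO pools (left, red) and the 3 WT pools (right, dark), with 1 panel per gene. Symbols mark replicate numbers, and the horizontal bar with whiskers is the mean ± SD. All KO points lie below all WT points for Egfr and Erbb2, all KO points lie above all WT points for Nrg1, and the groups overlap for the other 7 genes.

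Egfr, the targeted receptor of EGF, TGF-alpha and amphiregulin, was at 18.5, 15.9 and 17.4 CPM in KO replicates 1 to 3, and at 54.7, 43.0 and 44.7 CPM in the WT replicates. The groups did not overlap, and the KO pools lay closer together, with a coefficient of variation of 7.47% against 13.3% in WT. The log2 fold change was -1.46 (95% interval -1.77 to -1.15, edgeR adjusted p = 0.0449), which leaves 0.364 of the WT level. Behind these values stood 406 to 485 reads per KO library and 825 to 1421 per WT library. The gene lies on chromosome 11 at 16752203 to 16918158 (GRCm38, plus strand), and its count sums 11326 exon bases, so a transcript that lacks only the deleted exons still adds to it. The fold change kept its direction without any 1 library, from -1.53 to -1.34. Its call was lost on leaving out WT replicate 2 or 3 or any KO pool (edgeR adjusted p 0.113 to 0.353). A limma-voom fit gave an adjusted p of 0.0534, and edgeR with replicate number as block gave 0.0501.

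Fibroblasts are a known site of Egfr expression, and their markers differed among the WT pools. The mean log2 CPM of the 15 fibroblast markers was 7.30, 7.15 and 6.85 in KO replicates 1 to 3, against 7.15, 8.21 and 8.83 in the WT replicates. WT replicate 1 lay among the KO pools in fibroblast markers and had the highest Egfr level of the 6. The part of fibroblast content in the Egfr levels was not tested. On the log2 scale Egfr minus the fibroblast mean was -3.08, -3.15 and -2.72 in KO, against -1.38, -2.78 and -3.34 in WT. These differences overlapped between the groups (KO minus WT -0.48, exact permutation p = 0.7, two-sided, n = 3 each). On this measure 0.102% of all genes had every KO pool below the WT pools and 18.8% had every KO pool above them, and without WT replicate 1 the KO minus WT value was 0.0765. Gsn and Dcn, the most abundant fibroblast markers, were at 2720 ± 373 and 551 ± 87.3 CPM in KO and at 5342 ± 2885 and 1104 ± 560 CPM in WT. With the mean of fibroblast, endothelial and mural markers as a covariate the Egfr log2 fold change was -1.68, and it did not pass (edgeR adjusted p = 0.258). That covariate itself separated the groups, at 6.56 to 6.67 log2 CPM in KO and 7.02 to 8.12 in WT. The fit can therefore hardly part it from genotype, and changes under it do not show what the markers account for.

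Erbb2 encodes the receptor that has no ligand of its own and serves as the partner of the others. It was at 6.65, 5.18 and 6.72 CPM in KO and at 8.62, 10.01 and 15.6 CPM in WT. All KO pools lay under the lowest WT pool, which held for 2 of the 10 genes (Egfr and Erbb2), beside 10.1% of all genes tested. The log2 fold change of -0.88 (95% interval -1.48 to -0.29) did not pass in edgeR (adjusted p = 0.221), while DESeq2 gave an adjusted p of 0.0352 with a change of -0.89. The adjusted p was 0.0352 to 1.00 over 17 other settings, and it was under 0.05 in DESeq2 and without WT replicate 1 (log2 fold change -1.05, edgeR adjusted p = 0.0441).

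Erbb2 was set against the endothelial markers, whose mean was lower in every KO pool than in any WT pool. The difference between log2 CPM of Erbb2 and the mean of 13 endothelial markers was -3.67, -4.10 and -4.06 in KO, against -4.13, -4.08 and -4.06 in WT. KO replicate 1 was the highest, and the other 5 pools lay between -4.13 and -4.06. The groups overlapped (KO minus WT 0.15, exact permutation p = 0.5, two-sided, n = 3 each), and without KO replicate 1 the KO minus WT value was 0.0119. On this measure 70.7% of all genes had every KO pool above the WT pools and 0.146% had every KO pool below them. Pecam1 and Eng, the most abundant of these markers, were at 251 ± 43.8 and 261 ± 39.6 CPM in KO and at 448 ± 113 and 425 ± 127 CPM in WT. With the marker covariate, which itself separated the groups, the Erbb2 log2 fold change was -0.0756.

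Erbb3 encodes a neuregulin receptor with little kinase activity of its own that signals with Erbb2. Its level was 4.55, 4.05 and 3.03 CPM in KO and 3.23, 5.37 and 4.66 CPM in WT. The groups overlapped, and the log2 fold change was -0.19 (95% interval -0.82 to 0.44, edgeR adjusted p = 0.79). The interval reaches from a 0.567-fold to a 1.36-fold level, on 78 to 119 reads per library. Against 7 Schwann cell markers, from glial cells known to use Erbb3, the log2 difference was 1.36, 1.94 and 1.53 in KO and 1.12, 1.03 and 0.57 in WT. It was higher in every KO pool (KO minus WT 0.70), as it was for 13.8% of all genes, and the exact permutation p was 0.1, the smallest that 3 against 3 pools can give. The Schwann cell markers were themselves scarce, with a summed level of 7.82 to 14.1 CPM in KO and 12.5 to 26.7 CPM in WT.

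Per exon length the receptors kept 1 order in both groups, with Egfr above Erbb2 and Erbb2 above Erbb3. Egfr averaged 1.53 ± 0.114 RPKM (CPM per kilobase of exon) in KO and 4.19 ± 0.556 RPKM in WT. Erbb2 averaged 1.19 ± 0.166 RPKM in KO and 2.19 ± 0.714 RPKM in WT, and Erbb3 0.644 ± 0.129 RPKM in KO and 0.735 ± 0.181 RPKM in WT. Neighbours in this order did not overlap in range within either group. Summed over the 3 receptors, the level was 3.67, 3.08 and 3.33 RPKM in KO and 7.02, 6.61 and 7.73 RPKM in WT.

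The receptor makeup of the KO pools was uniform for Egfr and that of the WT pools was not. Egfr made up 44.6%, 45.8% and 46.1% of the summed receptor level in KO, against 68.8%, 57.4% and 51.1% in WT. Its share was lower in every KO pool, by 13.6 percentage points on average (KO minus WT -13.6, exact permutation p = 0.1, two-sided, n = 3 each). The Erbb3 share was 20.6%, 21.9% and 15.1% in KO and 7.65%, 13.5% and 10.02% in WT, which did not overlap either (KO minus WT 8.81 points, exact permutation p = 0.1). The Erbb2 share overlapped, with 34.8%, 32.4% and 38.7% in KO and 23.6%, 29.1% and 38.9% in WT (KO minus WT 4.80 points, exact permutation p = 0.5). Over the 5 receptor comparisons made, which also took in the summed level and the ratio of Egfr to Erbb2, the Benjamini-Hochberg adjusted permutation p was 0.167 for both shares that did not overlap. Shares sum to 100%, so a lower Egfr share raises the others whatever their own level. Erbb4, the remaining receptor gene of the family, had 4 to 28 reads per library and did not pass the filter on low counts.

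**Figure D2:**
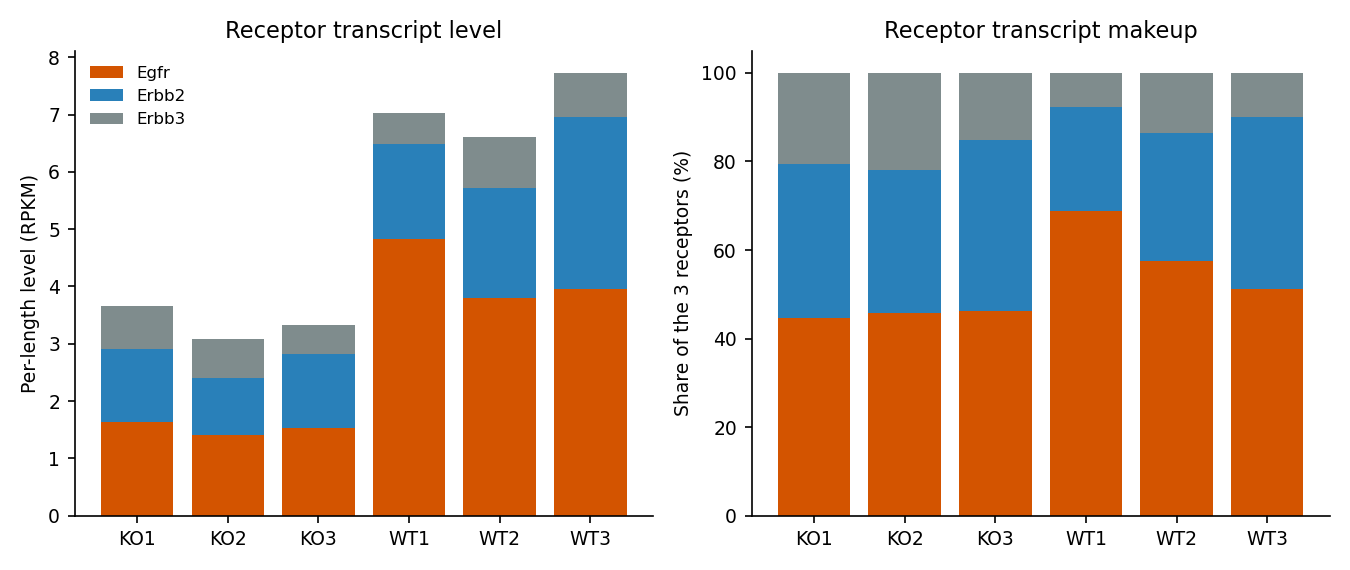
Per-length level in RPKM of Egfr, Erbb2 and Erbb3 stacked for each pool (left), and the same as a share of their sum in percent (right), with KO pools left of WT pools. The stacks reach 3.08 to 3.67 RPKM in KO and 6.61 to 7.73 RPKM in WT, and the Egfr share is 44.6% to 46.1% in KO and 51.1% to 68.8% in WT.

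Errfi1, Hbegf and Areg were the most abundant of the 10 genes per exon length. Errfi1 encodes an intracellular inhibitor that binds ErbB kinases and is induced by their signalling. It averaged 77.4 ± 25.5 RPKM in KO and 100.6 ± 16.8 RPKM in WT, above every other gene of the group in every pool. Hbegf and Areg overlapped in range with each other in both groups, and both stood above Egfr in every pool. Over the 6 pools the mean level of Errfi1 exceeded that of 96.9% of the genes tested, that of Hbegf 81.0%, that of Areg 79.5% and that of Egfr 42.0%.

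Errfi1 was at 355, 177 and 301 CPM in KO replicates 1 to 3 and at 347, 308 and 426 CPM in the WT replicates. The KO spread was the wider, with KO replicate 2 the lowest of the 6. The log2 fold change was -0.38 (95% interval -0.97 to 0.22, edgeR adjusted p = 0.525), and no setting gave an adjusted p under 0.05 (0.278 to 1.00).

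Hbegf encodes heparin-binding EGF-like growth factor, a ligand of Egfr and Erbb4. It was at 52.3, 36.4 and 95.3 CPM in KO and at 102, 64.6 and 112 CPM in WT. KO replicate 3 lay above WT replicate 2, so the groups overlapped. Its log2 change was -0.60 (95% interval -1.41 to 0.21, edgeR adjusted p = 0.458). Set against 12 resident macrophage markers the groups parted, with log2 differences of -3.80, -4.37 and -3.05 in KO and -2.86, -2.66 and -2.17 in WT. The KO minus WT value of -1.18 had the exact permutation p of 0.1, the smallest possible, and 23.5% of all genes had every KO pool below the WT pools on this measure and 0.764% had every KO pool above them. Csf1r and C1qb, the most abundant of those markers, were at 3051 ± 141 and 2236 ± 171 CPM in KO and at 2297 ± 686 and 1526 ± 560 CPM in WT.

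Areg encodes amphiregulin, a ligand of Egfr made by many immune cells. It was at 21.8, 12.3 and 14.4 CPM in KO and at 22.6, 12.9 and 23.6 CPM in WT. Its groups overlapped across nearly their whole range. KO over WT, the log2 change was -0.29 (95% interval -0.95 to 0.38, edgeR adjusted p = 0.683). Against the resident macrophage markers its difference was lower in every KO pool (KO minus WT -0.78, exact permutation p = 0.1, n = 3 each), beside the same 23.5% of all genes.

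Hbegf, Areg and Errfi1 shared both extremes, with the lowest level of each in KO replicate 2 and the highest in WT replicate 3, an observation made after seeing the values. Erbb2 had its extremes in the same pools. Immediate early genes are known to respond to tissue digestion. The mean log2 CPM of 14 of them was 10.7, 10.3 and 10.2 in KO and 10.5, 10.1 and 10.6 in WT. That mean was highest in KO replicate 1 and lowest in WT replicate 2. Within WT it ranked the pools as Hbegf, Areg and Errfi1 did, with replicate 3 highest and replicate 2 lowest. Within KO it was lowest in replicate 3, whereas Hbegf, Areg and Errfi1 were lowest in replicate 2. The part of the digestion response in these levels was not tested.

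Promoter sequence is shown for Areg and Errfi1, the pair of these high genes with shared extremes whose sequence is given here, and for Egfr, the deleted gene, as a contrast. The 150 bases before the transcription start are from RefSeq (GRCm38.p6, plus strand), at chr5:91139449-91139598 for Areg, chr4:150854920-150855069 for Errfi1 and chr11:16752053-16752202 for Egfr. Capitals mark the cyclic AMP response element TGACGTCA and the TATA motif TATAAA.
Areg: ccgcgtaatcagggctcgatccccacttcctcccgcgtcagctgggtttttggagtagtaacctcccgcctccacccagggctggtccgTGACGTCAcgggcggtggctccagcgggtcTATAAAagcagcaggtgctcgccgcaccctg
Errfi1: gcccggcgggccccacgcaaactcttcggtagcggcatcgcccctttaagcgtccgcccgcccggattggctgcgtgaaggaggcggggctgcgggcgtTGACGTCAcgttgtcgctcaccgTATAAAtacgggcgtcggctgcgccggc
Egfr: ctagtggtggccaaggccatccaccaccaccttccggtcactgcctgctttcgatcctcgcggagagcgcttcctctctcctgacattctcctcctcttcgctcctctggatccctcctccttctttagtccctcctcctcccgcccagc

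Areg and Errfi1 carried the same pair of motifs at similar distances. The first base of TGACGTCA lay at position -61 in Areg and -51 in Errfi1, counted from the transcription start, and that of TATAAA at -31 in Areg and -28 in Errfi1. Neither motif was found in the Egfr stretch. A window of 300 bases, 250 before and 50 after the start, was given for 6 of the 10 genes. Errfi1 has 2 windows, which makes 7 windows in all. Its downstream window is shown because it holds TGACGTCA and the other does not. The presence of that motif in the Errfi1 stretch was therefore fixed by the choice. The window passed over holds no TATAAA either, so the choice also decided whether Errfi1 showed the pair. Both strands of all 32851 mouse windows were searched. TGACGTCA was in 1.79% of them, TATAAA in 13.6%, and both in 0.170%. Because the Errfi1 window was picked for a motif, these shares do not measure how rare the shared pair is. The GC box GGGCGG was in 35.7% of all windows and in 4 of the 7, and the AP-1 motif TGACTCA in 5.202% of all windows and in 0 of the 7. The TGACGTCA and TATAAA matches overlapped no other match, while a pair of GC box matches in the Errfi1 stretch overlapped each other. These matches are letters in a window and not measured binding.

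Ereg encodes epiregulin, a ligand of Egfr and Erbb4. It was at 2.14, 1.26 and 0.971 CPM in KO and at 2.12, 4.69 and 4.05 CPM in WT. The 2 pools with Y-linked transcripts, KO replicate 1 and WT replicate 1, were nearly equal, while the other KO pools lay below the other WT pools. The log2 fold change was -1.31 (95% interval -2.28 to -0.34, edgeR adjusted p = 0.233), on 25 to 90 reads per library, where counting alone gives an SD of 20.0% at the lowest. Without both pools with Y-linked transcripts, a setting chosen after seeing the data, the change was -2.004 (edgeR adjusted p = 0.053). Without WT replicate 1 alone it was -1.58 and passed (edgeR adjusted p = 0.0482), and over 16 other settings the adjusted p was 0.0482 to 1.00. With the marker covariate, which itself separated the groups, the change was -0.49, with a standard error of 0.72 against 0.42 without it.

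Nrg1 encodes neuregulin 1, the ligand of Erbb3 and Erbb4, and was the only one of the 10 genes with a positive fold change. It was at 3.67, 2.63 and 4.35 CPM in KO and at 2.00, 2.50 and 1.91 CPM in WT. Every KO pool lay above every WT pool, as for 9.59% of all genes tested. The log2 fold change was 0.73 (95% interval 0.08 to 1.39), and it did not pass (edgeR adjusted p = 0.28). The adjusted p was 0.175 to 1.00 over 16 other settings, and the fold change was 0.55 to 0.91 in all of them.

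Nrg1 and the endothelial markers differed in opposite directions, although endothelial cells are a known source of neuregulin in the heart. The log2 difference between Nrg1 and the endothelial mean was -4.51, -5.05 and -4.68 in KO and -6.20, -6.04 and -7.04 in WT. The KO minus WT value was 1.68 (exact permutation p = 0.1, n = 3 each), but 70.7% of all genes also had every KO pool above every WT pool on this measure. With the marker covariate, which itself separated the groups, the Nrg1 log2 fold change was 0.75, with a standard error of 0.55 against 0.28 without it. The counts were 67 to 112 reads per KO library and 41 to 52 per WT library.

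Tgfa, the gene of transforming growth factor alpha, another ligand of Egfr, was at 2.71, 2.59 and 3.65 CPM in KO and at 3.04, 3.49 and 2.89 CPM in WT. The groups overlapped, and the log2 fold change was -0.07 (95% interval -0.65 to 0.50, edgeR adjusted p = 0.92). Btc, the gene of betacellulin, was the scarcest, with 9 to 12 reads per library, or 0.344, 0.393 and 0.427 CPM in KO and 0.346, 0.626 and 0.419 CPM in WT. Its log2 fold change was -0.24 (95% interval -1.27 to 0.79, edgeR adjusted p = 0.839). At that depth the interval reaches from a 0.414-fold to a 1.73-fold level.

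**Figure D3:**
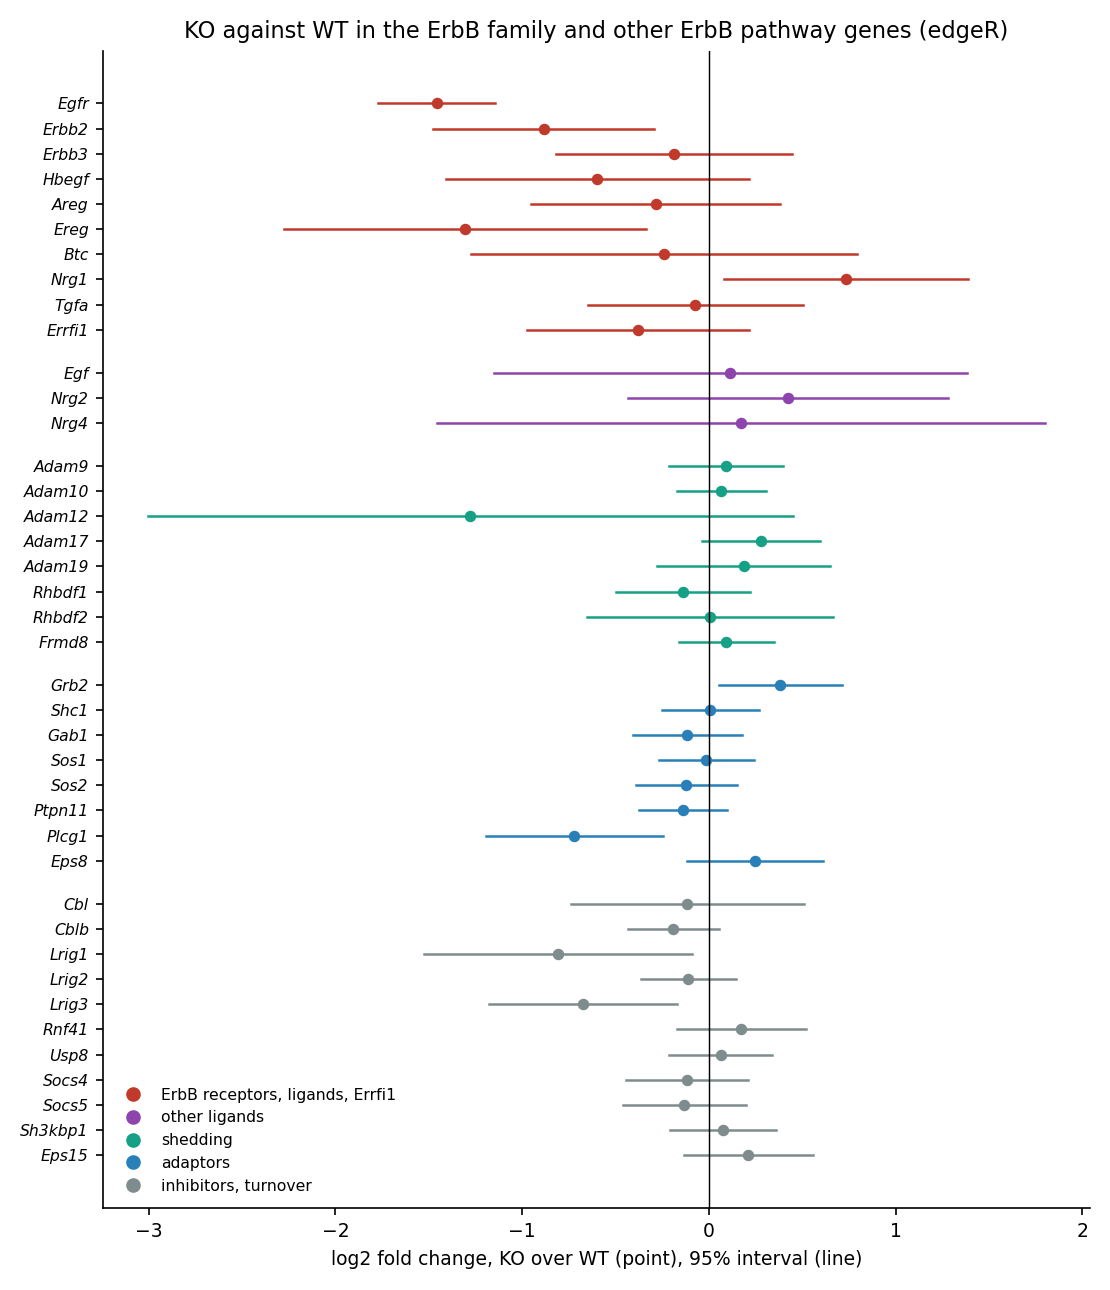
Log2 fold change, KO over WT, from edgeR (horizontal axis, points) with 95% intervals (lines) for the 10 genes and for 30 other ErbB pathway genes grouped by role. The interval of Egfr runs from -1.77 to -1.15, and among the ligands those of Ereg and Nrg1 leave out 0 on opposite sides.

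In order of per-length level the KO pools ran Errfi1, Areg, Hbegf, Egfr, Erbb2, Erbb3, Tgfa, Ereg, Nrg1 and Btc. In that order Areg with Hbegf, Erbb3 with Tgfa, Tgfa with Ereg, and Ereg with Nrg1 overlapped in range. The WT pools ran Errfi1, Hbegf, Areg, Egfr, Erbb2, Ereg, Erbb3, Tgfa, Nrg1 and Btc, and Hbegf with Areg, Ereg with Erbb3, and Erbb3 with Tgfa overlapped. Ereg stood at 0.353 ± 0.148 RPKM in KO and 0.877 ± 0.325 RPKM in WT, and Nrg1 at 0.343 ± 0.0835 RPKM in KO and 0.206 ± 0.0309 RPKM in WT. Those levels overlapped in KO, whereas in WT every Ereg level (0.513 to 1.14 RPKM) lay above every Nrg1 level (0.184 to 0.242 RPKM).

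**Figure D4:**
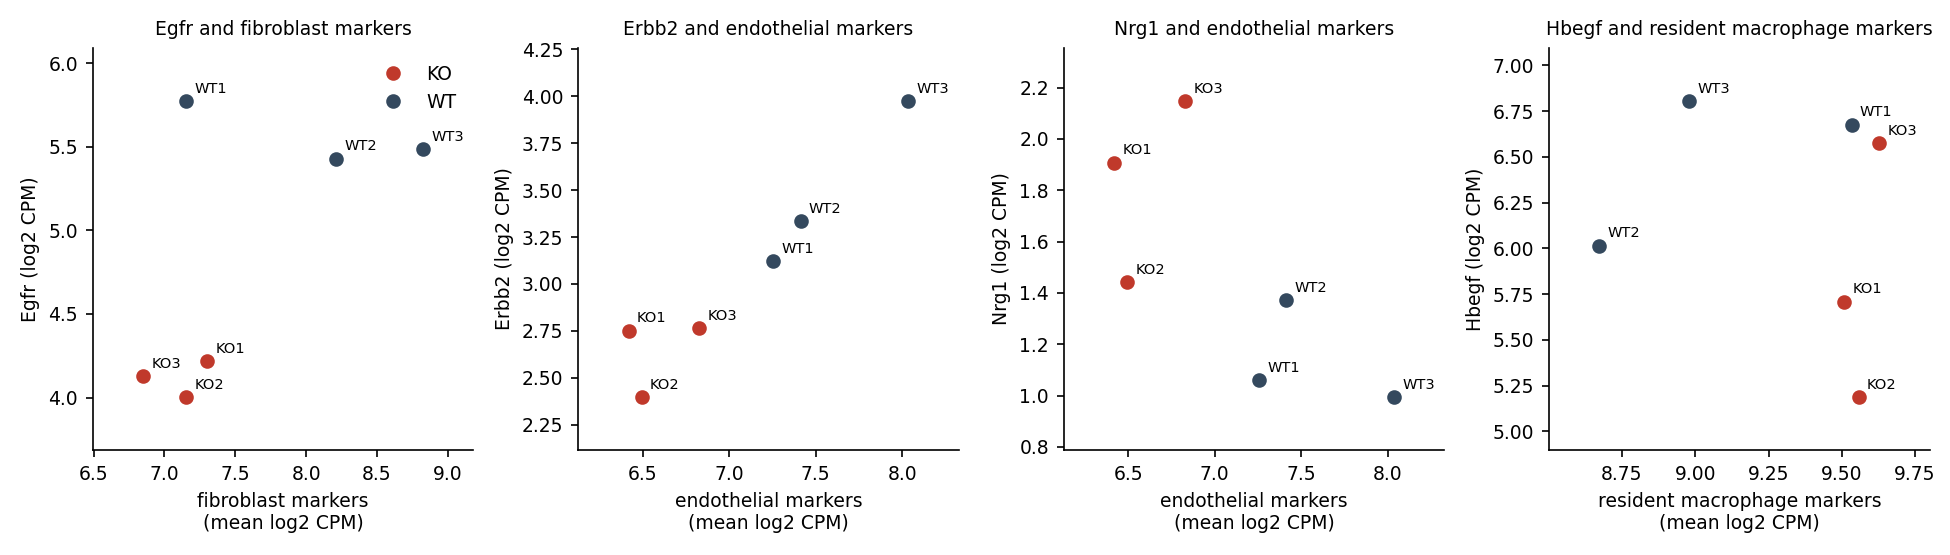
Log2 CPM of Egfr, Erbb2, Nrg1 and Hbegf (vertical axes) against the mean log2 CPM of fibroblast, endothelial, endothelial and resident macrophage markers (horizontal axes), with 1 point per pool in red for KO and dark for WT. WT replicate 1 (labelled WT1) sits at 7.15 on the fibroblast axis, among the KO pools at 6.85 to 7.30, but at the top of the Egfr axis, and Nrg1 is lowest in WT replicate 3, where endothelial markers are highest.

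Of 10 member-to-marker differences compared, 4 did not overlap between the groups, those of Erbb3, Nrg1, Hbegf and Areg. Their exact permutation p adjusted over the 10 was 0.25. In the same directions, 13.8% of all genes did not overlap against Schwann cell markers (Erbb3). The share was 70.7% against endothelial markers (Nrg1) and 23.5% against resident macrophage markers (Hbegf and Areg). The other 3 ligands set against resident macrophage markers, Ereg, Btc and Tgfa, overlapped, with KO minus WT values of -1.77, -0.69 and -0.59 (exact permutation p = 0.2, 0.4 and 0.2, n = 3 each). Errfi1 against endothelial markers overlapped too (KO minus WT 0.56, exact permutation p = 0.2).

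Of the genes with established names, those whose profile over the 6 pools lay nearest that of Egfr were Alpk3, Agtr1a, Arhgap8, Slc1a1 and Samd5. Their root-mean-square distance from the centred log2 profile of Egfr was 0.20, 0.21, 0.22, 0.24 and 0.29. The 13821 genes compared, with a mean of at least 1 CPM, also held predicted, mitochondrial and accession-named genes, which were passed over. Alpk3, Agtr1a and Arhgap8 were scarce, with KO means of 0.865, 0.632 and 0.658 CPM. Alpk3 encodes an alpha-kinase of muscle, Agtr1a an angiotensin II receptor and Slc1a1 a glutamate transporter. Because the Egfr profile itself separates the groups, the choice of these genes fixed that all 5 were lower in every KO pool, as 10.1% of all genes tested were. Their values are a description, with log2 fold changes of -1.43 for Alpk3, -1.38 for Agtr1a, -1.18 for Arhgap8, -1.20 for Slc1a1 and -1.18 for Samd5, and none passed in edgeR (adjusted p 0.153 to 0.205). Among the receptor and ligand genes Erbb2 lay nearest to Egfr, at 0.45, and Nrg1 farthest, at 1.099, with Btc not compared because its mean was under 1 CPM.

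None of the other ErbB pathway genes passed in edgeR. Of 34 listed by role, 30 were tested, and 0 were lower and 0 higher. At an unadjusted edgeR p under 0.05, 3 of the 30 were lower, beside 10.6% of all genes tested, and 1 was higher, beside 4.77%, so both counts were near the background. The median log2 fold change was 0.0078, against 0.0072 over all genes tested. DESeq2 called 1 of them lower, Plcg1, beside 3.97% of all genes, and limma-voom called none.

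Among the remaining ligand genes Egf, Nrg2 and Nrg4 were tested, with positive fold changes that did not pass. Nrg2, a second neuregulin gene, was at 3.44, 3.89 and 3.14 CPM in KO and at 4.002, 1.46 and 2.28 CPM in WT (change of 0.42 in log2, edgeR adjusted p = 0.63). Epgn and Nrg3 had at most 3 reads and 1 read in any library and were not tested.

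Genes for shedding of the ligands showed no call among 8. Adam17, the main protease that frees EGF ligands, was at 198, 191 and 189 CPM in KO and at 188, 139 and 149 CPM in WT, higher in every KO pool by a narrow margin over WT replicate 1. Its log2 fold change of 0.28 did not pass (edgeR adjusted p = 0.374). Adam12, a metalloprotease of stromal cells, was at 2.44, 0.354 and 2.02 CPM in KO and at 1.42, 7.19 and 3.17 CPM in WT, a difference of -1.28 in log2 (edgeR adjusted p = 0.457).

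Among 8 genes of adaptors and signal transducers, Grb2 and Plcg1 differed most by p and pointed in opposite directions. Grb2, the adaptor that couples the receptors to Ras, was at 276, 261 and 266 CPM in KO and at 245, 181 and 191 CPM in WT, a difference of 0.38 in log2 (edgeR adjusted p = 0.27). Plcg1, a phospholipase that binds active receptors, was at 58.1, 60.3 and 71.4 CPM in KO and at 72.2, 126 and 115 CPM in WT, a difference of -0.72 in log2 (edgeR adjusted p = 0.219). KO replicate 3 and WT replicate 1 nearly met for Plcg1. It passed in DESeq2 (adjusted p = 0.0383), in edgeR without the filter on low counts, without WT replicate 1 and without both pools with Y-linked transcripts.

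Among 12 inhibitors and turnover genes, 11 were tested. Lrig1 and Lrig3 encode membrane proteins of the same family, of which Lrig1 is known to lower ErbB receptor levels. Lrig1 was at 15.9, 13.1 and 18.3 CPM in KO and at 14.9, 32.5 and 35.5 CPM in WT (log2 fold change -0.81, edgeR adjusted p = 0.279), and WT replicate 1 lay among the KO pools. Lrig3 was at 5.92, 5.18 and 5.36 CPM in KO and at 6.81, 8.50 and 10.99 CPM in WT (log2 fold change -0.67, edgeR adjusted p = 0.234). Without WT replicate 1 edgeR called 2 of 31 pathway genes lower (Lrig1 and Plcg1), beside 5.97% of all genes, and 1 higher (Grb2), beside 2.33%, which is near the background. With the marker covariate, which itself separated the groups, the Lrig1 change was 0.36.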

How the data were processed

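RNA was measured in 3 KO and 3 WT pools. RNeasy Mini RNA was made into NEBNext Ultra II Directional libraries, per the labels' protocols. The deposited values are whole-number read counts per Ensembl gene, not normalized by the authors. The submitters' processing notes list STAR, HTSeq, DESeq2 and GRCm38. No tool version, gene annotation or strandedness of counting is stated there. The 5 counters that name no gene were left out: those for no feature held 5.90% to 8.62% of each table, those for ambiguous reads 1.49% to 1.72% and those for non-unique alignments 7.58% to 8.67%.

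Symbols matched 55141 of 55487 identifiers; coordinates and merged exon lengths are from GENCODE M21 (GRCm38). Genes on the opposite strand share at most 4.66% of the exon bases of any of the 10 genes.

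The edgeR 4.0.16 quasi-likelihood test (R 4.3.3, filterByExpr with minimum count 10, TMM, genotype only, two-sided) was fitted over 15707 genes, with Benjamini-Hochberg adjustment over all of them and a threshold of 0.05. Intervals are 95% intervals from that fit. CPM and RPKM were computed from the same scaled library sizes, and log2 CPM with a prior count of 2. Single values were compared with exact permutation tests. The procedure was tested on simulated counts.

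Alternatives were DESeq2 1.42.0, limma-voom (limma 3.58.1), RLE and upper-quartile scaling, no filter or a mean CPM of at least 5, bias-adjusted deviances, a replicate block, marker and Y-linked covariates, and each library left out. All 10 genes are named. Of the other pathway genes the text names the 2 with the smallest p in each role among those averaging 1 CPM or more, besides the 5 nearest to Egfr and up to 2 top markers per list. The genes, lists and tests were chosen with earlier results of these data known. Figures were drawn with matplotlib 3.10.9.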

Additional observations from a re-analysis of the deposited data

How the results depend on the processing

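Egfr kept its direction under every setting. It lost its call with limma-voom (-1.45), the replicate block (-1.45) and the marker covariate (-1.68). On leaving out 1 library its fold change ranged from -1.53 to -1.34. The call was lost in 5 of those 6 fits (edgeR adjusted p 0.113 to 0.353) and held without WT replicate 1. Counts of genes lower in KO were 2 in the main test, 624 with DESeq2, 643 without the filter, 344 without both pools with Y-linked transcripts (chosen after seeing the data), 1 each with limma-voom, the replicate block and the marker covariate, and 1 to 962 without 1 library, highest without WT replicate 1. Counts higher in KO were 0 in the main test, 161 with DESeq2, 139 without the filter, 63 without both Y-linked pools, 2 with the replicate block and 0 to 376 without 1 library. Of the 10 ErbB and EGF-family genes, 2 were lower with DESeq2, 0 with limma-voom, the replicate block or the marker covariate, and 0 to 3 without 1 library. Without Egfr these were 1 with DESeq2 and 0 to 2 without 1 library. Of the other pathway genes, 1 was lower with DESeq2, without the filter and without both Y-linked pools, and without 1 library 0 to 2 were lower and 0 to 1 higher. The median of the 10 genes was -0.0843 with the marker covariate and -0.53 without KO replicate 1. It was -0.62 over the 5 genes at a mean CPM of at least 5. Without both Y-linked pools it was -0.54 over 9 genes, because Btc was not tested there. Egfr minus fibroblast markers was -0.90 to 0.0765 without 1 library. DESeq2 gave no adjusted p for Btc, and the filter at a mean CPM of 5 left out 5 of the 10 genes. The causes were not tested.

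Over all genes, same-numbered KO and WT pools did not deviate together, with correlations of 0.0968, -0.16 and 0.006 for replicates 1, 2 and 3. The numbers were therefore not taken as pairs. Hbegf, Areg and Errfi1, however, were each lowest in replicate 2 of both groups. The replicate block cut their standard errors from 0.35 to 0.16, 0.29 to 0.18 and 0.26 to 0.18. None of them passed there (edgeR adjusted p 0.144 to 0.496). Standard errors of Egfr and Erbb2 fell too, and those of Erbb3, Ereg, Btc, Nrg1 and Tgfa rose. The replicate 1 pools of both groups do share Y-linked transcripts, and their summed neutrophil markers were the highest, at 2929 CPM in KO and 2044 CPM in WT. Counting error limits Btc, Ereg, Nrg1, Tgfa and Erbb3, with fewest reads of 9, 25, 41, 62 and 78 in a library. With 3 against 3 pools no exact permutation p can fall below 0.1.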
